A study of Saccharomyces cerevisiae with 6 samples.

Results

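The genes described here encode the septins of budding yeast (Saccharomyces cerevisiae) and proteins that work on them at the bud neck. They are the septin genes CDC3, CDC10, CDC11, CDC12 and SHS1, the kinase genes KCC4, GIN4 and HSL1, and BUD4. They were chosen by function, by gene symbol in the array's annotation, after K91A and WT values of this series were known, KCC4 being 1 of its large increases. Their values in that comparison are therefore given as a description, without a p-value for any of them. Where limma's calls of these genes are given, they describe the values and are no test of them. The 9 genes, of 5656 with a probe set of their own, had 16 of the 9335 probe sets on the array: 1 for each septin, GIN4 and HSL1, 3 for KCC4 and 6 for BUD4. After the dimmest 25% of probe sets were left out, 10 of the 16 remained, at least 1 for each gene, among 6931 tested.

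Total RNA came from yeast growing exponentially in YPD, a rich glucose medium. The strain of 3 arrays, K91A 1 to K91A 3, carries histone H4 with lysine 91 replaced by alanine. Arrays WT 1 to WT 3 are of a strain labelled as having wild-type histone H4. The labels used here give no further genotype, mating type or strain background. They do not say whether replicates were separate cultures, and if they were not, the p-values cover technical spread alone.

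Septins are GTP-binding proteins that join end to end into rods and filaments, which form a ring at the neck between mother cell and bud. The ring holds other proteins in place for bud site memory, cell cycle control and cytokinesis. Within the rod, Cdc10 lies at the centre, Cdc3 and Cdc12 follow, and Cdc11 or Shs1 takes the ends. Gin4, Kcc4 and Hsl1 are related protein kinases that bind septins. Gin4 helps to organise the ring, and Hsl1, with Hsl7, promotes the loss of Swe1, the kinase that holds back mitosis when bud formation is delayed. Bud4 is an anillin-like protein that links septins to the landmark by which haploid cells bud beside their last division site.

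Array 3 of the K91A group was placed there by its title, while its description calls it WT. Its median intensity was 745, where the other K91A arrays had 2040 and 2564 and the WT arrays had 1828 to 3117. Levels below are log2(intensity + 16) after quantile normalization, which gives every array the same distribution. Precision is limited by the number of arrays, 6, and whether a probe set stood above background is unknown. The 5' over 3' signal ratio of actin, a measure of RNA integrity and labelling, averaged 0.861 with an SD of 0.017 in K91A and 0.196 with an SD of 0.146 in WT (n = 3 each, exact permutation p = 0.1, two-sided, which is the smallest this design allows). By array it was 0.843 to 0.877 in K91A, 0.110 on WT 1, 0.114 on WT 2 and 0.365 on WT 3. WT 3 was thus the WT array nearest to K91A in this ratio. Fold changes also moved with gene length: 23.3% of genes in the longest of 5 length classes (2142 to 14733 nt) were called higher and 9.90% lower, and their median log2 fold change was 0.18. The part of RNA integrity and of gene length in the values below was not tested beyond the fit with the length trend removed. All 4 genes KCC4, GIN4, HSL1 and BUD4 (3114 to 4557 nt) lie in that class, and the septin genes (969 to 1656 nt) in the 3 middle classes.

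All 5 septin genes had a negative log2 fold change, K91A minus WT, between -0.76 and -0.27, with a median of -0.44 where all 6931 probe sets had -0.070. Limma called 0 of the 5 at an adjusted p of 0.05, and 2 had an unadjusted p under 0.05. Of all probe sets tested, 30.2% were called, and 3035 of 6931 had an unadjusted p under 0.05. The septin values are read here only as levels on these arrays, since the fold changes belong to the comparison by which the genes were chosen.

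CDC12, which joins the inner and outer parts of the rod, had levels of 9.74, 8.98 and 10.06 on K91A 1, 2 and 3, against 10.44, 10.43 and 10.19 on WT 1, 2 and 3. CDC10, the central subunit, had 12.97, 12.31 and 12.83 on the K91A arrays, against 13.40, 13.42 and 13.14 on the WT arrays. These are the 2 of 5 septin genes whose groups did not overlap, beside 51.1% of all tested probe sets. In both, every K91A array lay below every WT array. The log2 fold change was -0.76 (SE 0.31) for CDC12 and -0.61 (SE 0.23) for CDC10. The CDC12 value passed the threshold without K91A 3 (-0.98), and the CDC10 value did so with median centring (-0.86) in place of quantile normalization. Both passed with array weights (-0.65 for CDC12 and -0.53 for CDC10).

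SHS1, a non-essential septin that can take the end of the rod, had 11.75, 11.12 and 11.97 on the K91A arrays, against 12.10, 12.14 and 11.91 on the WT arrays. CDC11, the other end subunit, had 12.18, 11.52 and 12.43 on the K91A arrays, against 12.36, 12.49 and 12.22 on the WT arrays. In both genes K91A 3 lay within the WT values and K91A 2 well below them. CDC3, which lies next to Cdc10 in the rod, had 9.81, 9.09 and 10.45 on the K91A arrays, against 9.77, 10.33 and 10.07 on the WT arrays. Here K91A 3 was the highest of all 6 arrays and K91A 2 the lowest. The log2 fold changes were -0.44 (SE 0.26) for SHS1, -0.31 (SE 0.27) for CDC11 and -0.27 (SE 0.37) for CDC3. Without K91A 2 the CDC11 value was -0.050 and the CDC3 value was 0.077.

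The septin genes shared an order of arrays within the groups, which the choice of genes did not use. K91A 2 was the lowest K91A array for 5 of 5, where it was the lowest for 45.4% of 6918 tested probe sets with a value on every array. It was also the lowest for GIN4 and every KCC4 probe set, though not for HSL1 or BUD4 10867_s_at. This place was therefore not particular to the septins. K91A 3 was the highest K91A array for 4 of 5, where it was so for 38.7% of probe sets, and CDC10 was the exception. WT 3 was the lowest WT array for 4 of 5, where it was so for 48.5%, and here the exception was CDC3. The SD over the K91A arrays was 0.35 to 0.68 for the septins, against a median of 0.32 over all probe sets. Over the WT arrays it was 0.12 to 0.28, against a median of 0.20. The septin genes thus varied more between K91A arrays than between WT arrays, as the median probe set did.

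**Figure D1:**
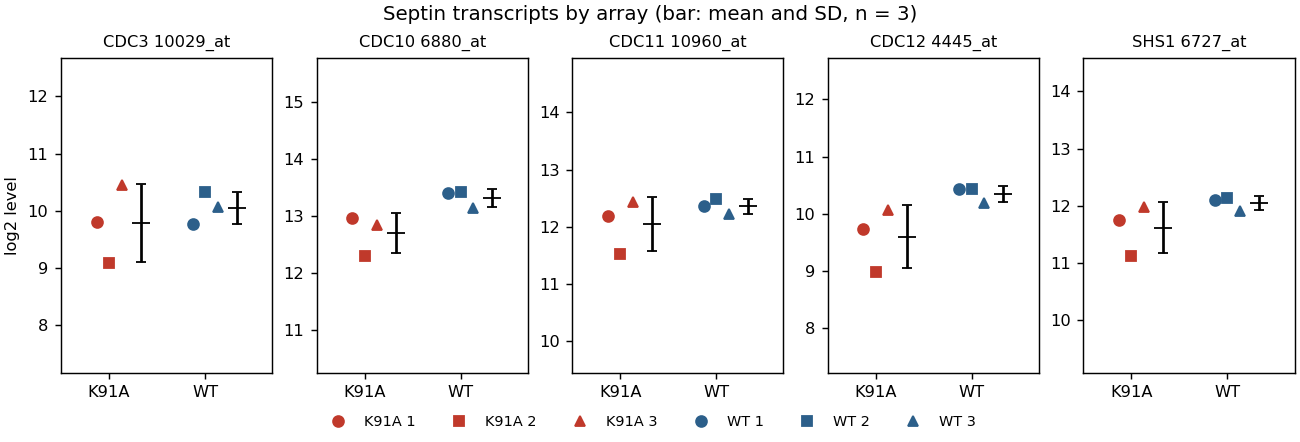
Log2 level (vertical axis, each panel with its own centre and the same span) of the 5 septin probe sets on each array, K91A left in red and WT right in blue, with symbols for replicates 1 to 3 and a bar for the mean and SD (n = 3). The square of K91A 2 is the lowest K91A point in every panel, and the groups separate for CDC10 and CDC12.

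The probe sets of the kinase genes differed from each other more than those of the septins did, with log2 fold changes of -0.85 to 2.91. Of the 4 kinase probe sets tested, limma called 1 of KCC4 higher and that of GIN4 lower in K91A, where it called 30.2% of all probe sets. The second tested probe set of KCC4 and that of HSL1 did not pass.

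KCC4 probe set 2432_at had levels of 13.70, 13.36 and 13.65 on the K91A arrays, against 10.62, 10.28 and 11.08 on the WT arrays. Every K91A array lay more than 2 units above every WT array, and the K91A arrays lay close together (SD 0.19, at the 24.1 percentile of all probe sets). Its deposited intensity was 5739 to 13160 on the K91A arrays, against 1811 to 2028 on the WT arrays, so the groups were apart before normalization too. The log2 fold change was 2.91 (SE 0.25), 7.51-fold on this scale. It was 2.12 and not past the threshold with K91A 3 counted as WT, and 2.82 without that array. With each array's trend on gene length removed it was 2.68.

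KCC4 probe set 3941_at gave another picture, with 9.71, 8.90 and 9.87 on the K91A arrays, against 10.20, 10.15 and 9.65 on the WT arrays. The groups overlapped, and the log2 fold change was -0.51 (SE 0.33). It lay within the range of the septins, and K91A 2 was the lowest, K91A 3 the highest K91A array and WT 3 the lowest WT array, as for CDC11, CDC12 and SHS1. Probe set 6762_s_at, whose suffix marks probes that match more than 1 transcript, was left out as dim, at 8.70, 8.04 and 8.46 on the K91A arrays, against 8.52, 8.30 and 8.48 on the WT arrays. These values overlapped and differed by -0.037 on average. The 2 tested probe sets lay 3.42 apart in log2 fold change, which ranked 5 among 225 genes with several tested probe sets, where the median gap was 0.89. An increase of KCC4 therefore rests on 1 of its 3 probe sets. The sources used here do not say which part of the transcript each probe set covers.

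The pattern of 2432_at over the 6 arrays was most like those of YHR033W, SEC16 and BBC1. Their root mean square differences from it, after each was centred on its own mean, were 0.16, 0.21 and 0.24 log2 units. SEC16 encodes a coat protein of ER exit sites, and BBC1 an actin patch protein. Both genes, like KCC4, differed between probe sets. Their tested probe sets lay 3.06 (SEC16) and 2.69 (BBC1) apart in log2 fold change, where the median gap was 0.89. The SEC16 probe set matched here has the suffix that marks shared probes. The likeness is therefore to a single probe set of SEC16 and of BBC1, not to the gene as a whole. The pattern of 3941_at was closest to HSP10, a mitochondrial chaperonin subunit, at 0.064, then to MRPL8, a mitochondrial ribosomal protein, at 0.078, and to POM34, a nuclear pore membrane protein, at 0.083. These neighbours follow from the K91A and WT levels of each probe set and are given as a description.

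GIN4, the kinase that acts on the septin ring most directly, had 10.75, 10.01 and 10.67 on the K91A arrays, against 11.37, 11.25 and 11.36 on the WT arrays. The groups did not overlap, and the WT arrays lay within a narrow range (SD 0.066). The log2 fold change was -0.85 (SE 0.24), 1.80-fold lower. The call ended without any 1 WT array (-0.87 to -0.82), although the size hardly moved. The call also ended on the values as deposited (-1.46) and with WT 1 and WT 2 averaged (-0.86). With the length trend removed GIN4 was called at -1.10.

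HSL1, the Swe1-regulating kinase, had 13.10, 11.98 and 10.03 on the K91A arrays, against 12.26, 12.39 and 11.82 on the WT arrays. The K91A arrays lay on both sides of the WT values, K91A 1 above them and K91A 3 far below. The SD over the K91A arrays was 1.55, at the 97.4 percentile of all probe sets, against 0.30 over the WT arrays. The log2 fold change was -0.45 (SE 0.71), and its sign turned without K91A 3 (0.38). Deposited intensity on K91A 3 was 360, where K91A 1 and K91A 2 had 8720 and 3800.

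**Figure D2:**
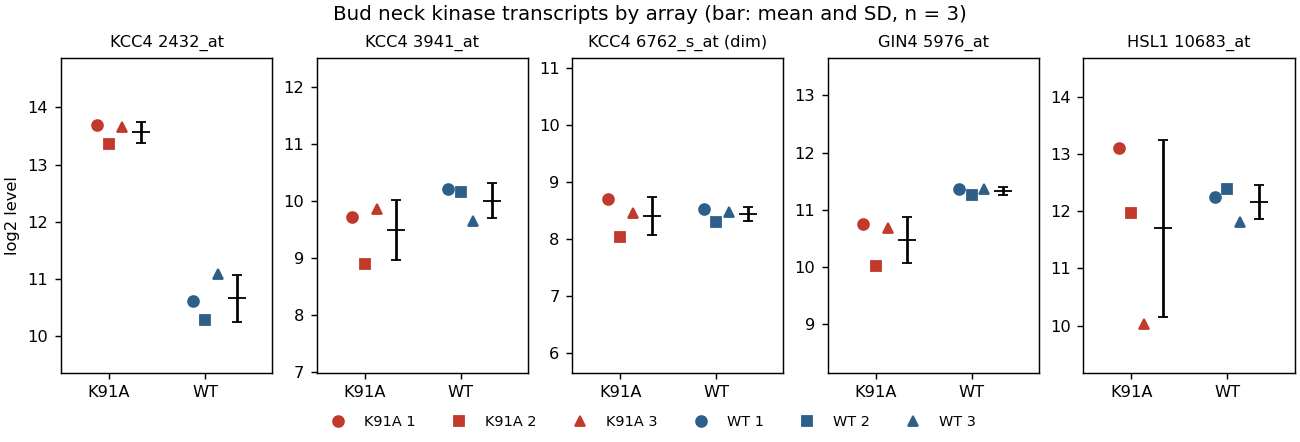
Log2 level (vertical axis, each panel with its own centre and the same span) of the KCC4, GIN4 and HSL1 probe sets on each array, K91A left in red and WT right in blue, with a bar for the mean and SD (n = 3). Only the first KCC4 panel has K91A above WT with no overlap, GIN4 has K91A below WT, and the HSL1 points of K91A spread from 10.03 to 13.10.

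BUD4 was covered by 6 probe sets, of which only 10867_s_at was bright enough to be tested, and its level was lower in K91A. It had 8.47, 11.50 and 8.83 on the K91A arrays, against 11.96, 12.18 and 11.96 on the WT arrays. The groups did not overlap, but K91A 2 lay close to the WT arrays while K91A 1 and K91A 3 lay far below. The log2 fold change was -2.44 (SE 0.74), 5.41-fold lower on this scale, and limma called it. Without K91A 2 it was -3.47, and the call ended without any 1 of the other 5 arrays (-2.48 to -1.93). The SD over the K91A arrays was 1.66, at the 97.8 percentile.

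Of the 5 dim BUD4 probe sets, 3008_at was slightly lower in K91A on average and the others were not. Probe set 3010_s_at had 8.25, 7.05 and 8.33 on the K91A arrays, against 5.70, 5.69 and 6.75 on the WT arrays, a difference of 1.84 with no overlap. Probe set 3012_s_at had 10.71, 9.48 and 11.07 on the K91A arrays, against 8.21, 7.92 and 10.10 on the WT arrays, a difference of 1.67 with K91A 2 below WT 3. In both, K91A 2 was the lowest K91A array, where it was the highest for 10867_s_at. Probe set 3011_s_at differed by 0.063, 3009_g_at by 0.35 and 3008_at by -0.20, and their groups overlapped. The span of 4.27 between the BUD4 probe sets ranked 6 among 314 genes with several probe sets before the filter. With no filter limma called 2 of the 6, 10867_s_at lower and 3010_s_at higher, where it called 26.3% of all 9242 probe sets. All of the 6 whose names end in _s_at have the suffix that marks shared probes, so their signal may include other transcripts. Only 3008_at has a plain suffix, and whether 3009_g_at is specific to BUD4 is unknown.

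**Figure D3:**
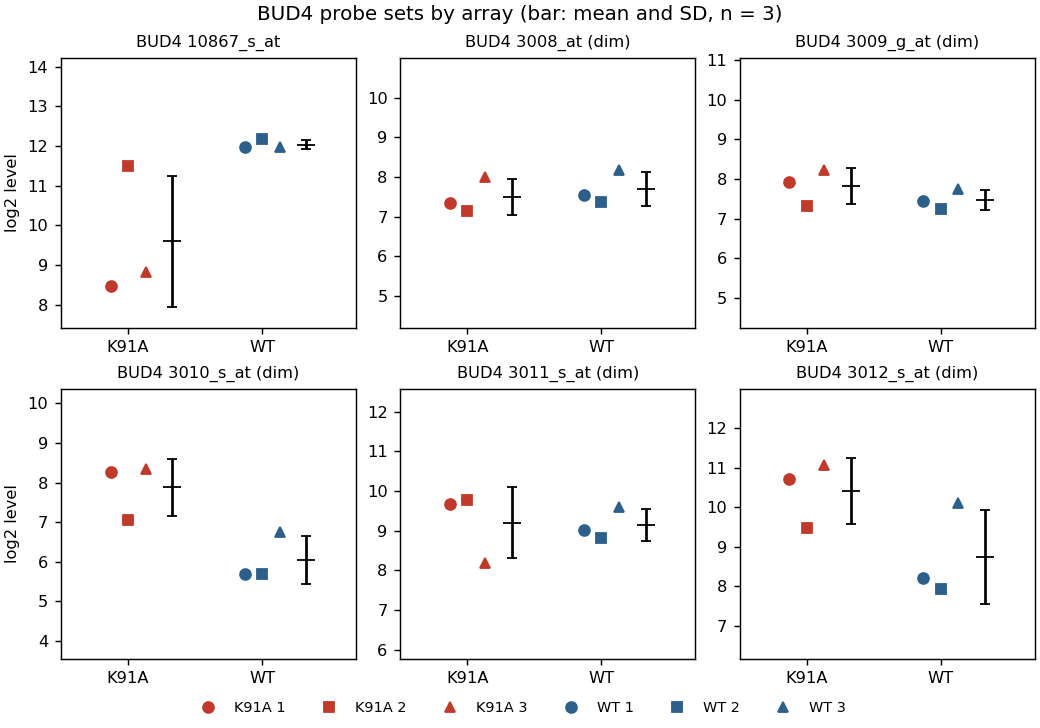
Log2 level (vertical axis, each panel with its own centre and the same span) of the 6 BUD4 probe sets on each array, K91A left in red and WT right in blue, with a bar for the mean and SD (n = 3). The tested probe set 10867_s_at has K91A below WT with K91A 2 near WT, while 3010_s_at and 3012_s_at lie higher on the K91A arrays on average.

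Across the 9 genes, limma called 3 of the 10 tested probe sets, 1 higher and 2 lower, beside 30.2% of all probe sets (15.4% higher and 14.8% lower). For 5 of the 10 the groups were apart, beside 51.1% of all tested, and for 6 of all 16, beside 47.7% before the filter. Of the 10 log2 fold changes 9 were below 0, with a median of -0.48, and 3702 of the 6931 were below 0. Without normalization between arrays the median over all probe sets was -0.82, so directions are relative to the bulk of transcripts. There KCC4 2432_at was still higher (2.19), and the septin values were -1.50 to -0.74.

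**Figure D4:**
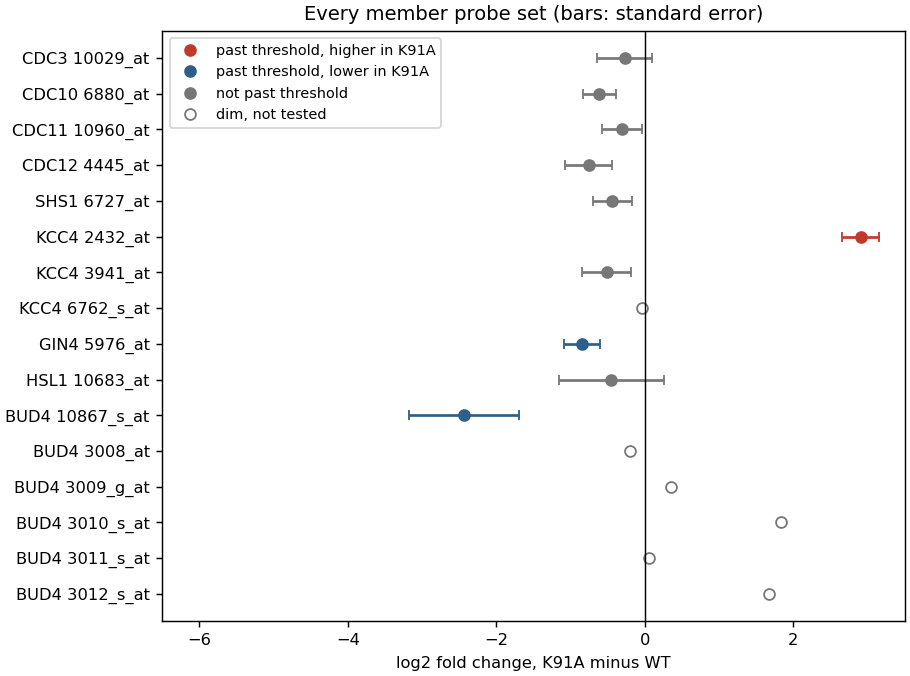
Log2 fold change, K91A minus WT (horizontal axis), of all 16 probe sets, with standard errors for the 10 tested and open circles for the 6 dim ones. KCC4 2432_at stands alone at 2.91, BUD4 10867_s_at lies at -2.44, and the septins lie between -0.76 and -0.27.

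The genes that work with these proteins were compared in 5 lists of 70 genes, chosen by known function, with 1 probe set per gene, the brightest. Of 62 measured, 4 rose and 8 fell by limma at the same threshold, and the median log2 fold change was -0.02. Of 5013 protein-coding genes, 15.1% rose and 14.4% fell, with a median of -0.092. The split varied with the setting: without K91A 2 it was 13 higher and 9 lower of 63, and with array weights 18 higher and 10 lower of 62. Without WT 1 limma called 2 genes in all, and without WT 2 it called 3. On the values as deposited limma called only AXL2 and RSR1 of the 12 genes. Of the 8 not measured, the sporulation septins SPR3 and SPR28 and the cyclin CLB2 were left out as dim.

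In bud site selection 3 of 9 genes fell and 1 rose (median -0.13). AXL2, the membrane protein of the axial landmark, had 9.93, 9.77 and 9.94 on the K91A arrays, against 11.78, 11.92 and 11.09 on the WT arrays, a difference of -1.72 on the log2 scale (SE 0.26, limma adjusted p = 0.00491). BUD3, which acts beside Bud4 in the same landmark, had 11.12, 10.63 and 11.27 on the K91A arrays, against 11.85, 12.19 and 11.82 on the WT arrays (log2 fold change -0.95, limma adjusted p = 0.0241). RSR1, the GTPase that reads the landmark, fell by 1.29 on the log2 scale (limma adjusted p = 0.0149). That value is of 4852_s_at, whose suffix marks shared probes, and a second probe set, 4851_i_at, gave -1.34. The groups of these 3 genes did not overlap, as for 51.1% of all tested probe sets. The tested AXL2 and BUD3 probe sets had the direction of the tested BUD4 probe set. The dim probe sets of AXL2, BUD3 and BUD4 were higher in K91A on average, other than BUD4 3008_at.

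AXL1, a protease made in haploid cells and needed for the axial pattern, rose by 0.83 (SE 0.20, limma adjusted p = 0.0229). Its call ended without any 1 WT array (0.77 to 0.90), with the length trend removed (0.57) and on the values as deposited (0.21). The BUD3 call ended without K91A 1, WT 1 or WT 2 (-1.04 to -0.82) and the RSR1 call without WT 1 or WT 2 (-1.21 and -1.22), while the AXL2 call held without each array in turn (-1.97 to -1.51). The dim BUD3 probe set 6912_at had 10.43, 10.01 and 10.65 on the K91A arrays, against 8.06, 8.35 and 10.10 on the WT arrays, so it did not follow the tested one. The dim AXL2 probe sets 4215_g_at and 4260_at differed by 0.41 and 0.091, and their groups overlapped.

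Markers of mating type and of haploid cells were also read, and those of mating type differed in part. Of 5 markers of a cells, MFA1 and MFA2, the a-factor genes, rose by 1.40 (limma adjusted p = 0.00387) and 0.99 (0.00963), and a second MFA1 probe set, 6021_f_at, by 2.20 (0.00273). The MFA1 probe sets, 6020_r_at and 6021_f_at, do not have the plain suffix, and whether their signal includes other transcripts is unknown. STE6 did not pass at 0.78. STE2 and BAR1 were dim and not tested, with differences of 1.05 and 0.79 and no overlap, so the 5 a cell markers were all higher in K91A on average. Of 2 alpha cell markers, STE3 (-0.59, limma adjusted p = 0.0656) and SAG1 (-0.30, 0.114), limma called 0, with 2 at an unadjusted p under 0.05, and of 4 haploid markers it called 0, with 1 at such a p. The haploid marker FUS3 differed between probe sets. The brightest, 7391_at, used here, was at 0.63 and 2458_g_at at 1.29, while the dim 2457_at differed by -1.36 with no overlap. Summed normalized intensity of the a cell markers lay between 14138 and 14741 in K91A, against 5795 to 6547 in WT. For the alpha cell markers the sum lay between 23400 and 24147 in K91A, against 28283 to 35522 in WT, and for the haploid markers between 9930 and 16237 in K91A, against 10307 to 12957 in WT. Their part in the bud site values was not tested.

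In septin ring assembly and regulation 1 of 18 genes rose and 1 fell (median -0.062). DMA2, a ubiquitin ligase that acts on septin ring dynamics and spindle position, had 12.78, 12.89 and 11.86 on the K91A arrays, against 10.94, 10.88 and 10.67 on the WT arrays (log2 fold change 1.68, SE 0.30, limma adjusted p = 0.0088). All K91A arrays were above all WT arrays, and the call held without each array in turn (1.52 to 1.97), but ended on the values as deposited (0.90). NBA1, a bud neck protein that keeps Cdc42 from acting at old division sites, fell by 0.71 (limma adjusted p = 0.025). The NBA1 call ended without K91A 1, WT 1 or WT 2 (-0.78 to -0.67). ELM1, a kinase that activates bud neck kinases, was at 0.52 (limma adjusted p = 0.0539), and CLA4, a kinase that phosphorylates septins, at -0.26 (0.614).

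In the Swe1 checkpoint 1 of 9 genes rose (median 0.33). MIH1, the phosphatase that opposes Swe1, rose by 0.75 (SE 0.23, limma adjusted p = 0.0462), and its call ended without any 1 of the 6 arrays (0.58 to 0.86), with the length trend removed (0.65) and on the values as deposited (0.15). SWE1 itself was at 0.25 (limma adjusted p = 0.474) and HSL7, the partner of Hsl1, at 0.33 (0.247).

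Of 16 genes of the actomyosin ring and cytokinesis 1 rose and 1 fell (median -0.16). MLC2, a light chain of the ring's myosin, fell by 1.03 (SE 0.21, limma adjusted p = 0.0141), and its call ended without WT 1 (-1.02) or WT 2 (-0.93). BNI1, a formin that builds actin cables, rose by 0.83 (limma adjusted p = 0.0497), a call that ended without any 1 array other than K91A 2 (0.64 to 0.95). It also ended with the length trend removed (0.46) and on the values as deposited (0.043). MYO1, the myosin heavy chain of the ring, was represented by its brightest probe set, 2113_s_at, at -0.27 (limma adjusted p = 0.711). Its other tested probe sets, 2108_at (-1.79, 0.00577) and 4497_at (-1.40, 0.00674), fell, so MYO1, like KCC4, differed between probe sets. HOF1, a ring protein that binds septins early and the actomyosin ring later, was at 0.042 (0.913).

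In septum chitin and daughter cell separation 3 of 10 genes fell and the other 7 did not pass (median -0.095). They were the daughter-specific gene DSE1 (-1.54, limma adjusted p = 0.0226), the bud neck protein gene DSE3 (-1.0, 0.0148) and the cell wall glucanase gene SCW11 (-1.05, 0.0277). Their groups did not overlap, as for 51.1% of all tested probe sets. The DSE1 call ended without K91A 1, WT 1 or WT 3 (-1.63 to -1.21), the DSE3 call without WT 1 or WT 2 (-0.91 and -1.02) and the SCW11 call without K91A 1 or any 1 WT array (-1.16 to -1.0). Other genes known for daughter-specific expression did not pass: DSE2 was at 0.056, DSE4 at -0.48 and EGT2 at -0.23, all named after their values were seen. The chitinase CTS1, also named so, was at 0.045 (limma adjusted p = 0.781).

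**Figure D5:**
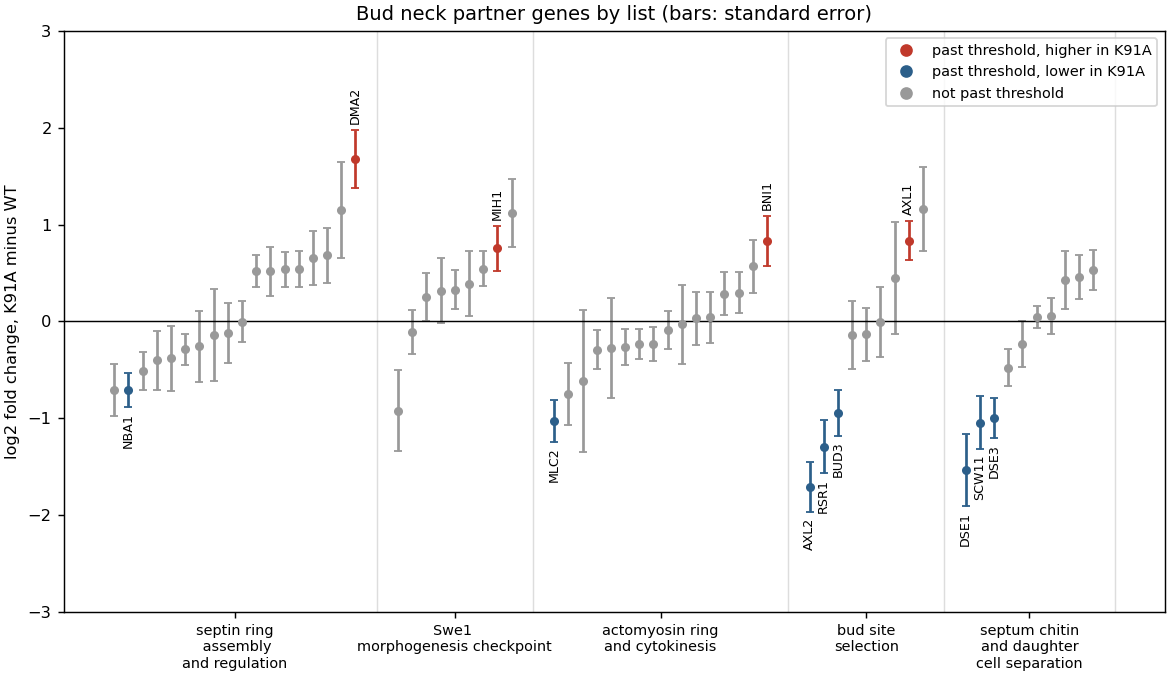
Log2 fold change, K91A minus WT (vertical axis), with standard errors, of 62 partner genes in 5 lists, ordered by value within a list, with those past the threshold named. AXL2 is the lowest at -1.72 and DMA2 the highest at 1.68, and 50 of the 62 did not pass.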

How the data were processed

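The table the authors deposited holds linear intensity values, 1 for each probe set on each array. Software, background correction and scaling of the scans are not given in the sources used here. Arrays were grouped by title. Probe sets were named from the platform annotation, with symbols and gene lengths from RefSeq (assembly R64). Of 9275 probe sets other than 60 controls, 6504 had 1 symbol, and no probe set with several symbols held a gene described here.

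Values were set to log2(intensity + 16) and quantile normalized. Left out were 33 probe sets with empty cells and the 2311 with the lowest mean. K91A minus WT was tested with limma 3.58.1 in R 4.3.3 (eBayes with a mean-variance trend), with Benjamini-Hochberg adjustment over 6931 probe sets at 0.05. The procedure was tested on simulated data. Gene levels use the brightest probe set. Genes, lists and tests were chosen with earlier results of these data known. Genes named are all members, up to 4 per list with the smallest p past the threshold, 9 fixed partners and the 3 nearest patterns of each tested KCC4 probe set. The alternatives were those named in the closing section. Promoter motifs were not analysed here.

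Replicate numbers did not pair the arrays: same-numbered arrays' deviations from their group means correlated at 0.167, -0.152 and -0.00523.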

Additional observations from a re-analysis of the deposited data

How the results depend on the processing

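The main counts were 2091 of 6931 probe sets (1068 higher, 1023 lower), 3 of 10 septin, kinase and BUD4 probe sets, and 12 of 62 partner genes past limma's threshold. With K91A 3 counted as WT limma called 0 in each, with 1056, 2 and 5 at an unadjusted p under 0.05. Leaving out 1 array at a time gave 841 to 2300 probe sets, 1 to 3 member probe sets and 2 to 22 partner genes. With WT 1 and WT 2 averaged the counts were 886, 1 and 2, and with the lowest 50% left out, which tests fewer probe sets, 1372, 1 and 7. On the values as deposited they were 703 (32 higher, 671 lower), 2 and 2. Array weights gave 3046 probe sets, 5 member probe sets and 28 partner genes (18 higher, 10 lower). The 22 without K91A 2 were 13 higher and 9 lower. The cause of these changes was not tested. The fit with the replicate block, for arrays that share only a number, called 1535 probe sets, 2 member probe sets (GIN4 was not past) and 8 partner genes. KCC4 2432_at was called in each setting other than K91A 3 counted as WT (2.12). Its increase was known when the genes were chosen, so these calls do not test it.

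Signs turned for 3 member and 10 partner values, none of them past the threshold. Leaving out 1 array at a time, CDC3 ranged from -0.60 to 0.077, CLA4 from -0.54 to 0.17 and MYO1 2113_s_at from -0.61 to 0.33, each positive without K91A 2. HSL1 ranged from -1.19 to 0.38, positive without K91A 3, and HOF1 from -0.12 to 0.33, negative without K91A 1 (-0.071) or K91A 3. With K91A 3 as WT HSL1 (0.91) and HOF1 (-0.22) turned. With the length trend removed HOF1 was at -0.11. On the values as deposited ELM1 (-0.12), HOF1 (-0.61), HSL7 (-0.40) and SWE1 (-0.53) turned. Pseudocounts of 1 and 64 and the fit without a mean-variance trend turned none. Signal over background is unknown, which limits the 6 dim probe sets most.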
